A study of Homo sapiens with 8 samples.

Results

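The subject is the genomic sites of the progesterone receptor (PR) in T47D-MTVL cells at 60 min of the progestin R5020, set against those at 30 min. All sites of both lists were taken: 25872 at 30 min and 24436 at 60 min, together 50308 of the 97966 sites in the 5 PR lists of the series. T47D-MTVL derives from T47D, a luminal breast cancer cell line of human origin, with a stably integrated reporter driven by the mouse mammary tumour virus promoter. Both groups were cells of this line kept in charcoal-treated serum and then without serum, given 10 nM R5020 for 30 or 60 min, fixed with formaldehyde and precipitated with an antibody against PR. Regions of H3K4me1 (monomethylated lysine 4 of histone H3), of H3K4me3 (the trimethylated form) and of RNA polymerase II came from unstimulated cells, and PR lists at 0, 5 and 360 min were used to place the sites in time. Each group held 1 library, so no difference between the times has a replicate check and no test between them was made. Read depth is unknown for every library, and the lists give positions only, without peak height. Intervals are exact 95% binomial intervals over the sites of 1 library, and they cover counting error only.

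PR is a nuclear receptor that binds DNA as a dimer once a progestin occupies its ligand pocket. In breast epithelium it acts mostly from enhancers, many of which carry H3K4me1 before the hormone arrives, and less often from promoters, which carry H3K4me3 and RNA polymerase II when active. R5020 (promegestone) is a stable synthetic progestin. A site on a list is a stretch where the authors' peak caller found PR enrichment. A site missing from a list may have been bound below the caller's threshold.

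The first question was how far the receptor's sites at 60 min were those already listed at 30 min. Most were the same: with 1 bp of overlap counted as shared, 18997 of the 25872 sites at 30 min were listed again at 60 min (73.4%, 72.9 to 74.0%). The remaining 6875 (26.6%, 26.0 to 27.1%) are called lost. Of the 24436 sites at 60 min, 18956 (77.6%) overlapped a 30 min site and 5480 (22.4%, 21.9 to 23.0%) did not, and these are called gained. The list at 60 min was thus 1436 sites shorter, with 6875 sites out and 5480 in. The lists before and after this step overlapped less. Forward in time, 61.9% of 5 min sites were listed at 30 min and 70.6% of 60 min sites at 360 min, against 73.4% here. Backward, the 5 min list held 54.8% of 30 min sites and the 60 min list 72.6% of 360 min sites, against 77.6% here. The steps differ in length, and the one from 60 to 360 min is the longest. These comparisons share the 30 or the 60 min library.

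Lost and gained sites were mostly far from any site of the other list. The median lost site lay 19.1 kb from the nearest 60 min site, and the median gained site 17.5 kb from the nearest 30 min site. Within 200 bp of a site of the other list lay 306 lost sites (4.45%) and 232 gained sites (4.23%), and within 10 kb lay 37.6% and 39.5%. Shared sites kept their position closely. Over the 18341 pairs in which 1 site of each list overlapped 1 site of the other, the midpoints were a median of 22.0 bp apart (quartiles 9.50 and 44.5 bp). In 96.5% of these pairs at least 50% of each site was covered by the other. Only 9 pairs had the same start and end in both lists. A 30 min site was split over 2 or more 60 min sites in 206 cases, and in 244 cases a 60 min site spanned 2 or more 30 min sites.

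Lost sites tended to be narrower than kept ones, with widths that overlapped. Lost sites had a median width of 243 bp (quartiles 211 and 291 bp) and kept sites 302 bp (255 and 375 bp), and kept sites had the larger median on all 23 chromosomes with sites. The narrowest quartile class at 30 min (median 214 bp) had 49.1% of its sites (47.8 to 50.3%) on the later list. The next quartile classes gave 73.6% and 82.0%, and the widest quartile class (median 424 bp) 89.1% (88.3 to 89.8%). Of the 528 sites wider than 600 bp, 501 were kept (94.9%, 92.6 to 96.6%). Gained sites were wider than lost ones, with a median of 285 bp (238 and 356 bp), but narrower than the shared sites of their own list (320 bp). The lists as a whole differed in the same direction, with medians of 285 bp at 30 min and 313 bp at 60 min. The wider gained sites are therefore not a trait of gained sites alone. Looking back from 60 min the dependence on width was shallower. In the narrowest quartile class of 60 min sites 65.2% (64.0 to 66.4%) had been listed at 30 min, and in the widest 85.1% (84.2 to 86.0%). Counted only among the wider 50% of each list, the share kept was 58.8% and the share gained 37.8%, because a wide site whose partner falls in the narrower 50% then counts as lost or gained.

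**Figure D1:**
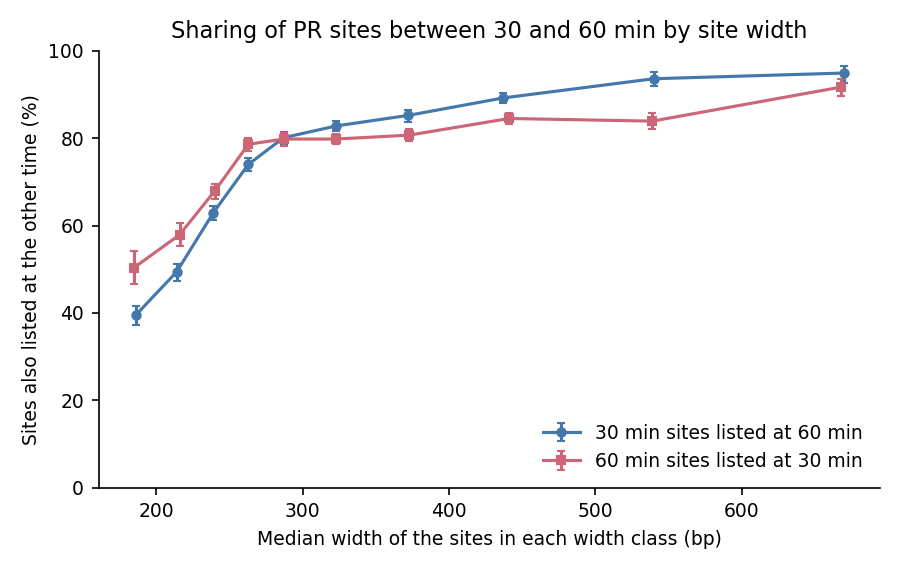
Share of sites also listed at the other time (y axis, %) against the median site width of 10 width classes (x axis, bp), for 30 min sites (circles) and 60 min sites (squares), with exact 95% intervals. The share is 39.5% for 30 min sites of at most 200 bp and 94.9% for those above 600 bp. For 60 min sites it runs from 50.4% to 91.7%.

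Some wide sites were nevertheless on 1 list only. The 5 widest lost sites were chr8:109596213-109597092 (879 bp), chr3:70854564-70855369 (805 bp), chr2:144122562-144123355 (793 bp), chr16:53920119-53920911 (792 bp) and chr9:22107256-22107955 (699 bp). All 5 had been listed at 5 min, and only the chromosome 9 site was listed again at 360 min. Of the 549 lost sites wider than 374 bp, 49.9% were listed at 5 min and 28.6% at 360 min. The sites on chromosomes 8, 16 and 9 lay in H3K4me1 regions without H3K4me3 or polymerase, and those on chromosomes 3 and 2 in none of the 3 kinds of region. The 5 widest gained sites were chr13:113147553-113148617 (1064 bp), chr22:46471632-46472536 (904 bp), chr3:45734239-45735117 (878 bp), chr22:22191529-22192397 (868 bp) and chr11:20023458-20024228 (770 bp). Of these, 4 were listed at 360 min as well, and the chromosome 11 site was not. Only the second chromosome 22 site, from 22191529, had been listed at 5 min. Of the 1135 gained sites wider than 374 bp, 19.9% were listed at 5 min and 48.6% at 360 min. Coordinates are those of the lists, on hg19. No gene annotation of that build was used here, so the sites carry no gene names.

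Shared sites were on average slightly wider at 60 min. The median width of the 18341 pairs was 301 bp at the earlier and 320 bp at the later time. The median log2 ratio of 60 to 30 min width was 0.05 (0.04 to 0.06), or 1.03 times, with quartiles of -0.13 and 0.29. It was above 0 on all 23 chromosomes, between 0.02 on chromosome 21 and 0.08 on chromosome 19. At 60 min 10373 pairs (56.6%) were wider, 7851 (42.8%) were narrower and 117 were equal. At least 1.5 times wider were 1875 pairs (10.2%), and at least 1.5 times narrower were 643 (3.51%). Widths of the same site at the 2 times ranked only loosely alike (Spearman's rho 0.52 across pairs, which are not independent replicates). The narrowest quartile class of 30 min sites had a median log2 ratio of 0.34 and the widest -0.07. When the quartile classes were made from 60 min widths the order was the opposite, with -0.12 for the narrowest and 0.24 for the widest. Ranked by the mean of both log widths, the 4 quartile classes gave 0.05, 0.05, 0.06 and 0.04, so the medians were alike at narrow and wide sites.

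**Figure D2:**
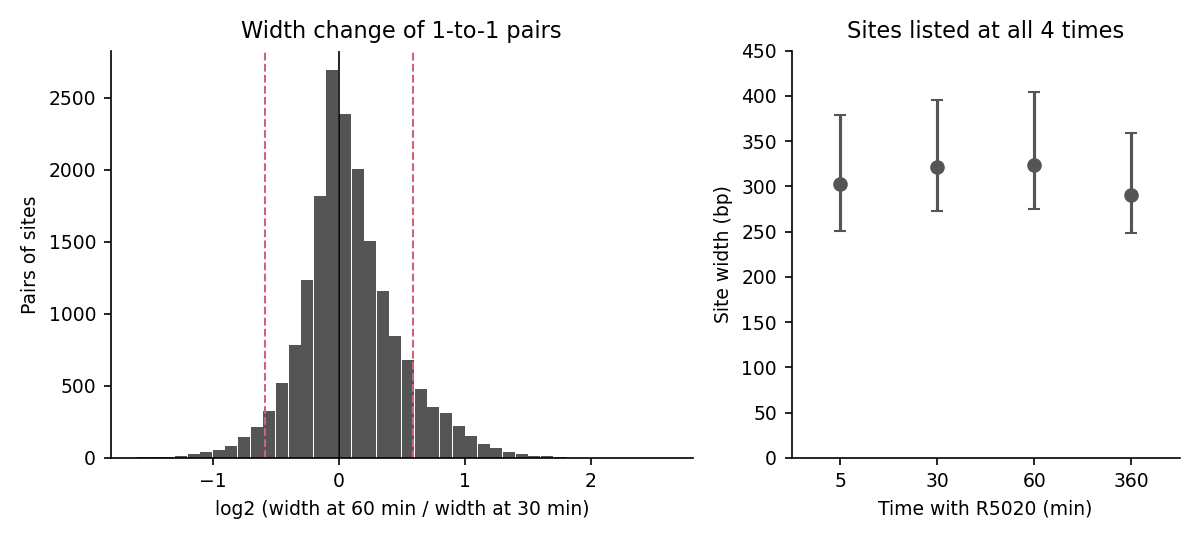
Left, number of 1-to-1 pairs (y axis) by log2 ratio of 60 min to 30 min width (x axis), with dashed lines at 1.5 times narrower and wider. The right tail is heavier, with 1875 pairs past the upper line and 643 past the lower. Right, median width with quartiles (y axis, bp) at 5, 30, 60 and 360 min for the 9448 sites with 1 partner at each time, highest at 60 min (324 bp) and lowest at 360 min (290 bp).

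The widening was mostly at sites that had not been listed at 5 min, in a split that was made after the width changes were seen. The 6636 pairs without a 5 min site had median widths of 275 and 312 bp at 30 and 60 min, and their median log2 ratio was 0.15 (0.14 to 0.16). The 11705 pairs listed at 5 min had 317 and 324 bp, and a median log2 ratio of 0.01 (0.00 to 0.01). Of the pairs without a 5 min site 66.5% were wider at 60 min, against 50.9% of those with one. At least 1.5 times wider were 1052 and 823 pairs, or 15.9% and 7.03%, against 10.2% of all pairs. The median ratio was larger at sites not listed at 5 min on all 23 chromosomes, by 0.04 to 0.20. It was also larger in each quartile class of mean width, at 0.11, 0.17, 0.20 and 0.18 against 0.01, -0.01, 0.01 and 0.02. Both inside and outside H3K4me1 regions the medians were 0.15 for sites not listed at 5 min and 0.01 for sites listed then. Among the pairs listed at 5 min, the 1885 that were not on the 360 min list had a median of 0.08 and the 9820 that were on it 0.00. The sites with 1 partner in each of the 4 lists with hormone, 9448 in number, had median widths of 303, 321, 324 and 290 bp at 5, 30, 60 and 360 min.

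The widest shared sites were ranked by the smaller of their 2 widths and are given as a description. This ranking picks sites that were wide at both times, so their similar widths follow in part from the choice. The leading pair, on chromosome X, was 1184 bp wide at 30 min (54773834 to 54775018) and 1142 bp at 60 min (54773841 to 54774983). A second pair on chromosome X had 1156 and 1100 bp (71601085 to 71602185 at 60 min), one on chromosome 7 had 1073 and 1071 bp (95179185 to 95180256), one on chromosome 11 had 1067 and 1082 bp (134844636 to 134845718) and one on chromosome 1 had 1055 and 1000 bp (109370977 to 109371977). All 5 were listed at 5 and 360 min too. The first pair and those on chromosomes 11 and 1 lay in H3K4me1 regions, and the other two in none of the 3 kinds of region.

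The pairs that differed most in width were the extremes of the list and are given as a description. On chromosome 1 a site of 159 bp at 30 min (113230801 to 113230960) was 836 bp wide at 60 min (113230694 to 113231530), 5.26 times wider. On chromosome 17 a site went from 200 bp to 994 bp (74442510 to 74443504 at 60 min), and on chromosome 7 one went from 156 bp to 595 bp (2104135 to 2104730). In the other direction a site on chromosome 6 went from 818 bp at 30 min (10314587 to 10315405) to 281 bp at 60 min (10315162 to 10315443), 2.91 times narrower. A site on chromosome 10 went from 688 to 239 bp (112251958 to 112252197), and one on chromosome 8 from 593 to 207 bp (116982032 to 116982239). The 3 that widened were all listed at 360 min, and the 3 that narrowed were not, against 78.9% listed of all shared sites. So few sites cannot show a link between width change and later listing.

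The next question was what became of lost and gained sites at the other times. Most shared sites were listed at 360 min (78.9%, 78.3 to 79.5%), and 64.3% (63.6 to 65.0%) had been listed at 5 min. Lost sites had been listed at 5 min in 1989 cases (28.9%, 27.9 to 30.0%) and came back on the list at 360 min in 1715 cases (24.9%, 23.9 to 26.0%). Gained sites had been listed at 5 min in 929 cases (17.0%), and 2284 (41.7%, 40.4 to 43.0%) were still listed at 360 min. Gained sites were therefore listed less often at 5 min than lost ones, by 12.0 percentage points, and more often at 360 min, by 16.7 points. Within quartile classes of site width the differences were 17.5 and 16.2 points in the same directions.

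Lost sites were most often seen at 30 min alone among the lists with hormone. In all, 3733 of the 6875 (54.3%, 53.1 to 55.5%) were on neither the 5 min nor the 360 min list, 1427 (20.8%) were on the 5 min list alone, 1153 (16.8%) on the 360 min list alone and 562 (8.17%) on both. Among the lists with hormone, those 562 sites were thus missing at 60 min alone. In the same way 402 gained sites (7.34%) were listed at 5, 60 and 360 min and, among the lists with hormone, missing at 30 min alone. Of the gained sites 1882 (34.3%) were on the 360 min list and not the 5 min list, 527 (9.62%) were on the 5 min list and not the 360 min list, and 2669 (48.7%) were on neither. Of the sites listed in unstimulated cells, 77 of 844 were listed at both 30 and 60 min, 8 at 30 and not 60 min, and 12 at 60 and not 30 min.

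**Figure D3:**
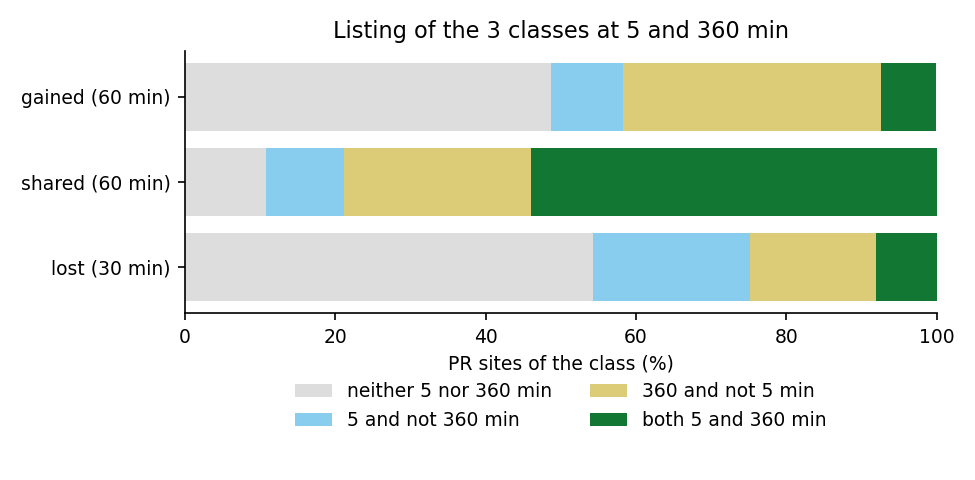
Share of sites (x axis, %) by listing at 5 and 360 min, for lost sites, shared sites in 60 min coordinates and gained sites. Shared sites were on both other lists in 54.0% of cases, lost sites in 8.17% and gained sites in 7.34%.

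Lost and kept sites also differed in how their width at 30 min compared with that at 5 min. For 360 min the ratios of lost and kept sites were nearly equal. Among lost sites with 1 partner at 5 min median widths were 264 (5 min) and 258 bp (30 min), a median log2 ratio of -0.04 over 1888 sites. Kept sites with a partner at 5 min had 300 and 317 bp, a ratio of 0.06 over 11654 sites. Against 360 min the median log2 ratios of 30 min width were close, at 0.08 for lost sites (247 and 233 bp, 1678 sites) and 0.09 for kept sites (309 and 285 bp, 14505 sites). Gained and shared sites differed against both times. With a partner at 360 min, gained sites had 297 (60 min) and 250 bp (360 min), a median log2 ratio of 0.22 over 2241 sites. Shared sites had 324 and 285 bp, a ratio of 0.12 over 14510 sites. Against 5 min the ratios of 60 min width were 0.16 for gained (289 and 252 bp, 898 sites) and 0.08 for shared sites (324 and 301 bp, 11671 sites).

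The third question was in what chromatin of unstimulated cells the lost and gained sites lay. Over all widths, lost and gained sites had similar shares in H3K4me1 regions, and gained sites were more often in H3K4me3 and RNA polymerase II regions. H3K4me1 regions held 2570 lost sites (37.4%, 36.2 to 38.5%) and 2115 gained sites (38.6%, 37.3 to 39.9%), against 51.0% (50.3 to 51.7%) of shared sites in 60 min coordinates. The gained share exceeded the lost share by 1.21 points, with an interval that included 0 (Newcombe's 95% interval -0.508 to 2.94). Kept sites exceeded lost ones by 13.6 points (12.2 to 14.9), on all 23 chromosomes. H3K4me3 regions held 176 lost sites (2.56%, 2.20 to 2.96%) and 306 gained sites (5.58%, 4.99 to 6.23%), a difference of 3.02 points (2.32 to 3.75). The gained share was the larger on 21 of 23 chromosomes. It was close to the 4.99% (4.68 to 5.31%) of shared sites. RNA polymerase II regions held 4.51% (4.03 to 5.03%) of lost sites, 7.23% (6.55 to 7.94%) of gained sites and 9.41% of shared sites. The gained share was above the lost share on 22 of 23 chromosomes.

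**Figure D4:**
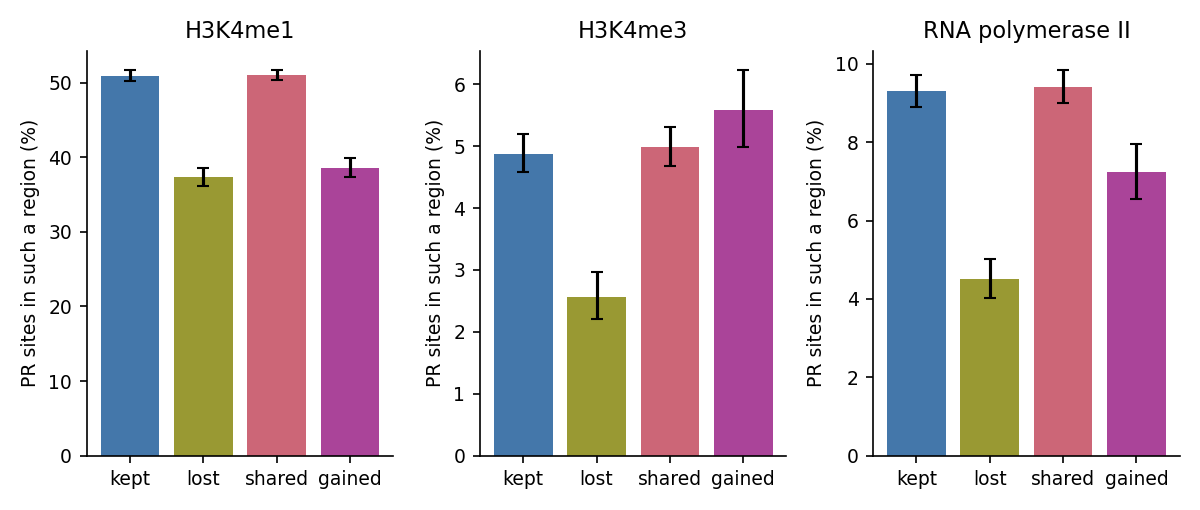
Share of PR sites (y axis, %) in H3K4me1, H3K4me3 and RNA polymerase II regions of unstimulated cells, with exact 95% intervals. Kept and lost sites are in 30 min coordinates, shared and gained sites in 60 min coordinates. Lost and gained sites are near each other for H3K4me1 (37.4 and 38.6%) and apart for H3K4me3 (2.56 and 5.58%).

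The shares were also compared within 4 quartile classes of site width, with upper bounds of 249, 298 and 374 bp for the first 3. For H3K4me3 the gained share was above the lost share in each, at 5.46, 5.09, 7.11 and 4.58% of gained against 2.94, 2.20, 1.80 and 2.37% of lost sites from narrow to wide. In the widest class the intervals overlapped (3.44 to 5.96% and 1.27 to 4.02%). For RNA polymerase II the gained shares were 7.19, 6.92, 8.35 and 6.34% and the lost shares 4.69, 3.88, 3.69 and 6.56%, so that gained sites were not above lost ones among the widest. H3K4me1 differed in opposite directions at the ends of the width range. Among the narrowest sites it held 36.3% of lost (34.7 to 37.8%) and 40.6% of gained sites (38.4 to 42.9%), and among the widest 46.4% (42.2 to 50.7%) and 39.0% (36.2 to 41.9%). In the middle classes the values were 37.7 and 36.0%, then 36.1 and 37.9%. Kept sites exceeded lost ones in all 4 classes for each kind of region. Among the widest the kept and lost shares were 57.1 and 46.4% for H3K4me1, 4.62 and 2.37% for H3K4me3, and 11.4 and 6.56% for polymerase. When sites were instead classed among only the wider 50% of each list, kept minus lost was 7.57 points for H3K4me1, 0.236 for H3K4me3 and 2.21 for polymerase, and gained minus lost was -4.86, 1.87 and 0.468 points. Lost and gained sites in that setting include shared sites whose partner was in the narrower 50%, so the classes are mixed by construction.

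H3K4me1 also followed listing at 5 min within each class. Lost sites that had been listed at 5 min and not at 360 min lay in H3K4me1 regions in 50.2% of cases (47.5 to 52.8%), and lost sites on neither list in 32.1% (30.6 to 33.6%). For gained sites the same 2 groups had 54.8% (50.5 to 59.1%) and 36.9% (35.0 to 38.7%). Sites on the 360 min list and not the 5 min list had low H3K4me1 shares whether lost (31.3%), shared (35.3%) or gained (32.4%). The highest shares were at sites on both other lists, at 60.6% for shared, 58.0% for gained and 52.5% for lost sites. H3K4me3 was most frequent at the 402 gained sites on both other lists (8.96%, 6.35 to 12.2%) and was at 6.11% (5.23 to 7.08%) for gained sites on neither. For lost sites on neither it was 2.09% (1.66 to 2.60%). Of the 306 gained sites in H3K4me3 regions 110 (35.9%, 30.6 to 41.6%) were listed at 360 min, against 42.0% (40.7 to 43.4%) of gained sites outside them.

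As a result the 60 min list, although shorter, had more sites in H3K4me3 regions. Their number was 1104 at 30 min and 1252 at 60 min, or 113% of the earlier number. In RNA polymerase II regions it was 2077 and 2180 (105%). In H3K4me1 regions it was 12248 and 11789 (96.3%), and in none of the 3 kinds 13300 and 12305 (92.5%). Combined, sites in all 3 kinds of region numbered 598 and 685 and those in H3K4me1 and H3K4me3 regions without polymerase 296 and 341, each 115%. Sites in H3K4me1 regions alone numbered 10109 and 9517 (94.1%), and sites in H3K4me1 and polymerase regions 1245 and 1246. Sites in H3K4me3 regions were kept in 84.1% of cases (81.8 to 86.2%), against 73.4% of all 30 min sites. They were new at 60 min in 24.4%, with an interval (22.1 to 26.9%) that included the 22.4% of all 60 min sites. Among the combinations with over 1000 sites, H3K4me1 with polymerase and without H3K4me3 had the highest carry-over from both sides. Its sites were kept in 85.2% (83.1 to 87.1%) and gained in 14.4% (12.5 to 16.5%). The only other combinations of that size were H3K4me1 alone and none of the 3 kinds. Sites in all 3 kinds of region were fewer and were kept about as often, in 85.5% (82.4 to 88.2%). They were gained more often, in 24.1% (20.9 to 27.5%). Sites in no listed region were kept in 68.1% (67.3 to 68.9%) and gained in 26.8% (26.0 to 27.6%).

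Seen from the regions, 7541 H3K4me1 regions held PR at both times, 1700 at 30 min alone and 1375 at 60 min alone. For H3K4me3 regions the order was the opposite, with 922 at both times, 189 at 30 min alone and 334 at 60 min alone. RNA polymerase II regions with PR numbered 1711 at both times, 328 at 30 min alone and 419 at 60 min alone. The number of PR sites in a region was equal at the 2 times in 58.9% of the H3K4me1 regions that held any, in 60.5% of the H3K4me3 regions and in 65.0% of the polymerase regions. An H3K4me1 region with 1 PR site at 30 min held PR at 60 min in 77.3% of 7235 cases, and one with 2 sites in 96.1% of 1461 cases. A region counts here if it held any 60 min site, so a higher share with 2 sites follows from the counting alone. Whether single sites in such regions were kept more often was not tested by these shares.

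Among sites in all 3 kinds of region, the widest shared pairs were chr22:29214303-29215138 (804 and 835 bp at 30 and 60 min) and chr11:71792832-71793539 (714 and 707 bp). The widest lost sites of this kind, chr8:42249748-42250282 (534 bp) and chr16:69758745-69759238 (493 bp), were on neither the 5 nor the 360 min list. The widest gained ones were chr17:28804685-28805285 (600 bp), listed again at 360 min, and chr15:35838411-35838954 (543 bp), listed at 60 min alone.

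Sites in company were kept more often than single ones. Of the 13665 sites at 30 min with no other site within 10 kb, 69.7% (69.0 to 70.5%) were listed at 60 min. With 1 neighbour the share was 75.8%, with 2 it was 78.7%, and with 3 or more it was 80.4% (78.9 to 81.8%). Sites in company were also wider and more often in H3K4me1 regions, with medians of 277 and 306 bp and shares of 35.3 and 76.2% for no and for 3 or more neighbours. Within the narrowest width quartile class the shares kept were 46.6% (45.0 to 48.2%) and 55.1% (50.8 to 59.4%), and within the widest 87.7% and 91.5%. Sites were not matched for H3K4me1 here.

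The balance of loss and gain varied between chromosomes. Fewer sites were listed at 60 min on 18 chromosomes and more on 5, namely 16, 17, 19, 20 and 22. Their numbers were close, from 383 and 384 on chromosome 19 to 352 and 371 on chromosome 22. At the other end chromosome 21 had 364 and 307 sites (84.3%) and chromosome 13 had 635 and 562 (88.5%). The share kept was 78.4% on chromosomes 16 (75.5 to 81.1%), 17 (75.8 to 80.8%) and 22 (73.7 to 82.6%), and 68.3% (64.6 to 72.0%) on chromosome 13 and 69.9% (68.0 to 71.7%) on chromosome 3, against 73.4% over all 30 min sites. Chromosomes 19, 17 and 16 also had the densest H3K4me3 regions, at 22.7, 17.6 and 11.6 per Mb, while chromosomes 22 and 20 had 8.82 and 8.34. The next densest, chromosomes 3, 12 and 11 (9.58, 9.53 and 9.40 per Mb), had only 90.1, 89.7 and 93.8% of their 30 min number. Across the 23 chromosomes Spearman's rho between this density and the 60 to 30 min ratio of site numbers was 0.45. Sites outside all 3 kinds of region also varied, with 110% of the 30 min number on chromosome 22 and 78.7% on chromosome 21. Sites in H3K4me3 regions were more numerous at 60 min on 19 chromosomes and equal on 2. Without the 5 chromosomes that had more sites at 60 min, gained sites exceeded lost ones in H3K4me3 by 2.81 points, in an alternative chosen after the values were seen. What the chromosomes' differences go back to was not tested.

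**Figure D5:**
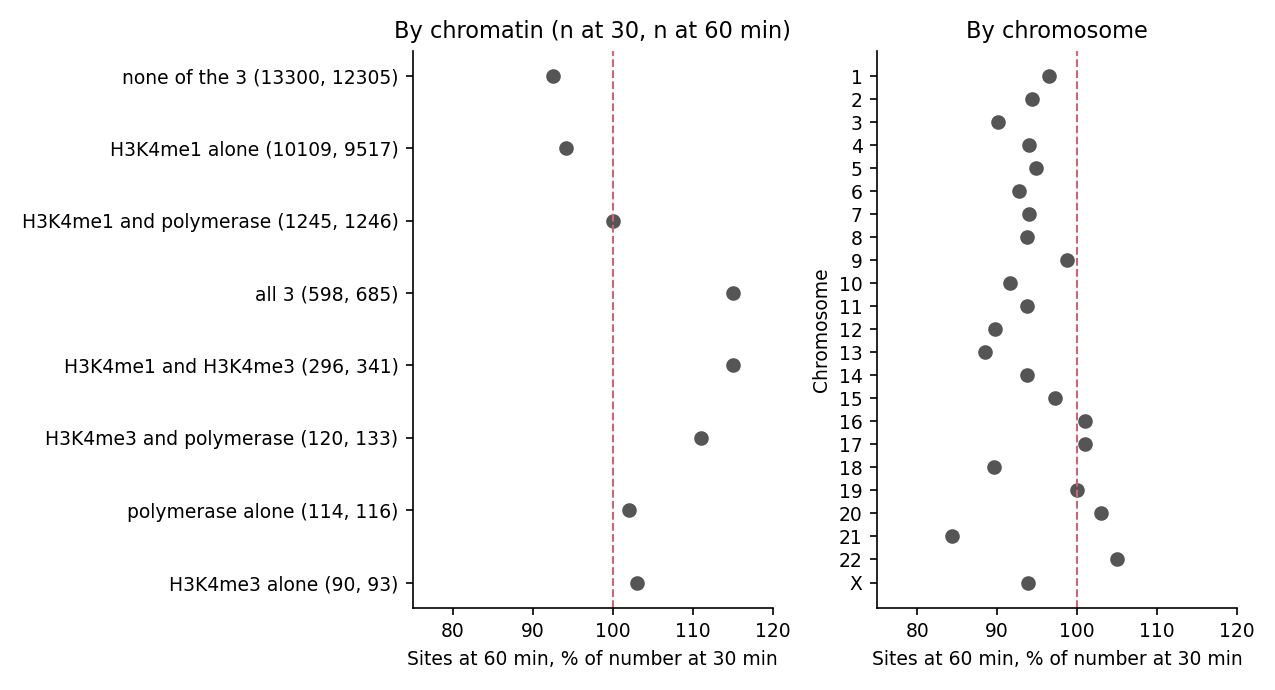
Number of sites at 60 min as a percentage of the number at 30 min (x axis), by combination of chromatin regions with the numbers at 30 and 60 min in brackets (left) and by chromosome (right). The dashed line marks equal numbers. Sites in all 3 kinds of region are at 115% and sites in none at 92.5%, and chromosomes run from 84.3% (21) to 105% (22).

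The last comparison used the authors' deposited table of MNase reads. Micrococcal nuclease (MNase) cuts the DNA between nucleosomes, so the reads stand for nucleosome-sized DNA. The table covers 60 min sites only, so shared and gained sites can be compared and lost sites cannot. Unstimulated reads divided by R5020 reads had a median, in the authors' deposited table, of 1.31 at shared sites (quartiles 1.05 and 1.67) and 1.25 at gained sites (1.01 and 1.60). The ratio from the authors' deposited table was above 1 at 78.8% of shared and 75.1% of gained sites, and the shared median was the larger on 21 of 23 chromosomes. The classes hold different chromatin, and within chromatin classes the difference was nearly gone. Weighted over the 8 combinations of regions, the log2 ratio of shared to gained medians was 0.01, against 0.07 without regard to chromatin.

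In sites with none of the 3 kinds of region the authors' deposited table gave medians of 1.14 for shared and 1.13 for gained sites. With H3K4me1 alone its medians were 1.43 and 1.41, and with H3K4me1 and polymerase 1.97 and 1.94. In sites with all 3 kinds the order turned, at 2.17 for 519 shared and 2.42 for 165 gained sites in the authors' deposited table. The same held over all sites in H3K4me3 regions, with 1.93 (quartiles 1.47 and 2.67) for 944 shared and 2.10 (1.58 and 2.95) for 306 gained sites of the authors' deposited table. The quartiles overlap widely. Of these sites 45.9% of the shared and 54.2% of the gained exceeded a ratio of 2 in the authors' deposited table.

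Reads before hormone were compared per 100 bp of site, and their order depended on chromatin. Over all sites the authors' deposited table had medians of 30.6 normalized reads at gained and 30.2 at shared sites in unstimulated cells, and 24.2 and 22.8 after R5020. Outside all 3 kinds of region its unstimulated medians were 27.3 at gained and 24.5 at shared sites, and with H3K4me1 alone they were 35.7 and 35.1. In the authors' deposited table gained sites had the lower unstimulated medians with H3K4me1 and H3K4me3 (34.2 and 39.8), with H3K4me1 and polymerase (36.3 and 39.8) and with all 3 kinds (40.1 and 42.0). Without H3K4me1, gained sites of the authors' deposited table had the higher medians. These were 24.4 and 23.8 with H3K4me3 alone, 28.7 and 25.2 with polymerase alone, and 29.6 and 25.9 with H3K4me3 and polymerase. Those combinations held only 21, 22 and 29 gained sites. Per site, without regard to width, the unstimulated medians of the authors' deposited table were 90.0 at gained and 100 at shared sites. Median ratios were also taken by width change of shared sites in the authors' deposited table. These were 1.25 at pairs at least 1.5 times wider at 60 min, 1.26 at pairs at least 1.5 times narrower, 1.30 at pairs that were wider by less, and 1.32 at pairs that were equal or narrower by less. This range is about as large as the distance between shared and gained sites. For the first 2 of these groups the authors' deposited table had 28.4 and 32.6 unstimulated reads for each 100 bp.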

How the data were processed

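Each PR and chromatin sample has 1 list of regions, deposited by the authors with hg19 coordinates (build per the file headers and per the submitters' processing notes). The labels and headers used here state no aligner, peak caller, threshold or input control. A further table deposited by the authors holds a score per 60 min site, a normalized whole number of MNase reads in unstimulated and R5020-treated cells. It also holds their ratio, made by the authors and blank at 3 sites. How the reads were normalized is not stated. All 24436 sites of that table matched the 60 min list.

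Sites sharing 1 bp or more were called shared. Width changes were taken over 1-to-1 pairs, with a fold of 1.5 for counts. Shares have exact (Clopper-Pearson) intervals, medians of log2 ratios have binomial order-statistic intervals, and differences of shares have Newcombe intervals. Overlap counting was tested on simulated data with planted shares. Named sites were the 5 widest shared, lost and gained sites, the 3 most widened and narrowed pairs with 1 width of at least 300 bp, and the 2 widest of each class in all 3 kinds of region. The comparison and the lists were chosen with earlier results of these data known. Gene names and motifs had been planned and were not run, since no annotation or sequence of hg19 was used here. Python 3.11.15, NumPy 2.4.6, pandas 2.3.3, SciPy 1.17.1, statsmodels 0.14.6 and Matplotlib 3.10.9 were used.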

Additional observations from a re-analysis of the deposited data

How the results depend on the processing

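Of 56 alternative values for 12 results, 28 stayed within the interval of the reported value, 26 moved beyond it in the same direction and 2 reversed. The log2 width changes of 0.04 and 0.06 given below are counted as moved. As printed they equal the bounds of their interval (0.04 to 0.06). With a reciprocal overlap of 50%, the share kept was 69.5%, the share gained 26.4%, the median log2 width change 0.04, kept minus lost 11.3 points for H3K4me1 and 4.10 for RNA polymerase II, and gained minus lost at 360 min 11.9 points. Counting sites within 200 bp as shared gave 74.6% kept and 21.5% gained. The wider 50% of each list gave 58.8% kept, 37.8% gained, a log2 width change of 0.06, kept minus lost of 7.57 (H3K4me1), 0.236 (H3K4me3) and 2.21 points (polymerase), and gained minus lost of -4.86, 1.87 and 0.468 points, so that H3K4me1 reversed; its lost and gained classes are mixed by construction, since a partner in the narrower 50% is not counted. The widest 20000 sites of each list, an alternative chosen after seeing the data, gave 72.6% kept and 27.5% gained. With midpoints in the region, kept minus lost was 1.59 points for H3K4me3 and 3.92 for polymerase, and with the wider 50% of chromatin regions 12.1, 1.66 and 3.10 points for H3K4me1, H3K4me3 and polymerase. Within width quartile classes, kept minus lost was 11.7 points and gained minus lost -0.737 for H3K4me1, also a reversal, and gained minus lost at 5 min was -17.5 points. Within chromatin classes the log2 MNase difference was 0.01. The causes of the moves were not tested. No paired analysis was possible because each group holds 1 sample. The unknown depth and peak threshold of the 30 and 60 min libraries limit every list-based difference.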

Other observations

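In windows of 5 Mb with at least 20 sites at 30 min, fewer sites were listed at 60 min in 320 of 488. More were listed in 137 and an equal number in 31. Windows were admitted by their 30 min number alone, which leans this count toward fewer sites at 60 min. The whole list also fell, from 25872 to 24436 sites. The share kept in these windows ran from 42.9% to 95.5%. The windows with the most 30 min sites did not behave alike, and ranking them by 30 min number leans the same way. Chromosome 16 from 85 to 90 Mb had 168 sites at 30 min and 181 at 60 min, with 83.9% kept. On the long arm of chromosome 3, the window from 190 to 195 Mb had 158 and 122 sites (63.9% kept), that from 185 to 190 Mb had 132 and 114 (74.2%), and that from 175 to 180 Mb had 129 and 102 (67.4%). The window on chromosome 9 from 110 to 115 Mb had 140 and 125 sites, with 77.1% kept. These windows were described after their values were seen.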
